A study of Mus musculus with 30 samples.

Results

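Notch pathway genes and genes of the Notch-dependent splenic dendritic cell were followed in single-cell RNA libraries of mouse spleen. The set was chosen by name and holds 8 genes: the receptors Notch1 and Notch2, the transcription factor Rbpj, the pathway targets Dtx1 and Hes1, and the surface genes Esam, Clec4a4 and Cd4. All 8 of them have a row among the 32285 genes of the deposited matrices. The study compared mice labelled Smc3-cKO, a conditional knockout of the cohesin subunit gene Smc3, with mice labelled Smc3-WT, and its title names cohesin and the transcription factor PU.1 in conventional dendritic cells. The single-cell part is spleen cells depleted of red blood cells, with 2 Smc3-cKO and 2 Smc3-WT libraries made with a 3′ kit; the other 26 of the 30 samples of the series were not analysed here. The labels used here give neither the Cre line, the deleted exons, the strain, the sex nor the age of the mice of these 4 libraries. Whether replicate 1 and replicate 2 of a genotype were different mice is not stated either, so p-values measure only the spread between libraries, which may be technical.

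Notch receptors are cut when they bind a ligand on a neighbouring cell, and the released part enters the nucleus and joins Rbpj, the DNA-binding partner that turns on targets such as Hes1 and Dtx1. In the mouse spleen, Notch2 signalling is known to be needed for the Esam-high, Cd4-bearing part of the cDC2, the conventional dendritic cells that prime helper T cells, and for marginal zone B cells. The other cDC2 of the spleen are Esam-low and more monocyte-like in their genes, and cDC1, the cross-presenting subset, make up the remaining conventional dendritic cells.

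Cells were assigned to classes one by one from lists of marker genes, and none of the 8 genes was a marker. A cell counted as cDC2 when the share of cDC2 markers with a unique molecular identifier (UMI, 1 counted transcript) was above that of the other dendritic cell lists. The class held 57 and 163 cells in the Smc3-cKO libraries, replicates 1 and 2, and 83 and 148 cells in the Smc3-WT libraries, replicates 1 and 2, in all 451 of the 44803 cells kept. The median cDC2 had 6209 and 5618 UMIs in Smc3-cKO and 4392 and 5070 UMIs in Smc3-WT. Library totals ran from 40367056 to 51299056 UMIs. Levels are UMIs of a gene per 1000000 UMIs of the class in 1 library (CPM). All 8 of the cDC2 markers were detected in the class, and together they reached 1810 and 1750 CPM in Smc3-cKO cDC2 against 1700 and 1470 CPM in Smc3-WT cDC2. A log2 change divides the Smc3-cKO level by that of Smc3-WT.

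Smc3 itself was counted at 112 and 117 CPM in Smc3-cKO cDC2 and 101 and 105 CPM in Smc3-WT cDC2. A 3′ tag outside the deleted exons does not check a knockout, and those exons are not given in the sources used here, so these counts do not check the labels. Smc3-WT replicate 1 stood apart by RNA of other cell types in its cells. In its cDC2, the 10 B cell markers summed to 690 CPM, against 185 and 156 CPM in the Smc3-cKO libraries and 243 CPM in Smc3-WT replicate 2. A B or T cell marker UMI was found in 27 of 57 and 84 of 163 Smc3-cKO cDC2, and in 81 of 83 and 90 of 148 Smc3-WT cDC2. Called doublets were 1.03% of the cells of Smc3-WT replicate 1 and 4.05% to 6.41% of the cells of the other libraries. The libraries shared 36 to 61 cell barcodes per pair, at most 0.432% of the smaller library.

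Across all cDC2, Dtx1, Esam, Clec4a4 and Cd4 had lower levels in both Smc3-cKO libraries than in either Smc3-WT library. The receptor Notch2 and its nuclear partner Rbpj had overlapping levels. With so few libraries such a separation can readily arise by chance, and an exact permutation test given below returned p = 0.333 for one. The share of all tested genes whose genotypes did not overlap was not counted. Lack of overlap, here and below, is therefore a description and not evidence of a genotype effect. No gene of the set passed the quasi-likelihood test of edgeR, whose p-values were adjusted by Benjamini and Hochberg's method over all genes of the class. Of the 6 genes with enough counts to be tested, 0 were called, and 3 had an unadjusted p under 0.05. Over all 7490 genes tested in cDC2, 27 were called, which is 0.36%, and 589 had an unadjusted p under 0.05. Dtx1 and Cd4 were near the threshold, with edgeR adjusted p-values of 0.0823 and 0.0636. Some alternative settings, DESeq2 among them, called both, and fewer called Clec4a4. Several of these settings also called more genes over the class than the 27 of the main fit, as given below. Such calls are therefore no separate evidence. Notch1 and Esam were too sparse to be tested.

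Cells of the genotypes were not spread alike over clusters with cDC2 markers, made without the 8 genes and without aligning the libraries. Not all of these cells are in the gated class, and how the gated cells divide over the clusters was not counted. The levels of the class may therefore compare unlike mixtures, which was not tested. Of 3 clusters with cDC2 markers, the first held 22 and 66 cells of the Smc3-cKO libraries and 78 and 128 cells of the Smc3-WT libraries. The second held 48 and 102 Smc3-cKO cells and 12 and 37 Smc3-WT cells, and the last held 3 and 7 Smc3-cKO cells and 50 and 189 Smc3-WT cells. The marker gate took in 47 of 73 and 132 of 175 of these cells in Smc3-cKO, and 66 of 140 and 115 of 354 in Smc3-WT, so it left out a larger share of the Smc3-WT cells. A lower level in a class and a smaller share of a kind of cell within it cannot be told apart here. Over the 3 clusters, Dtx1 had a log2 change of -2.44 (edgeR adjusted p 0.0513) and Cd4 of -2.22 (edgeR adjusted p 0.0212).

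**Figure D1:**
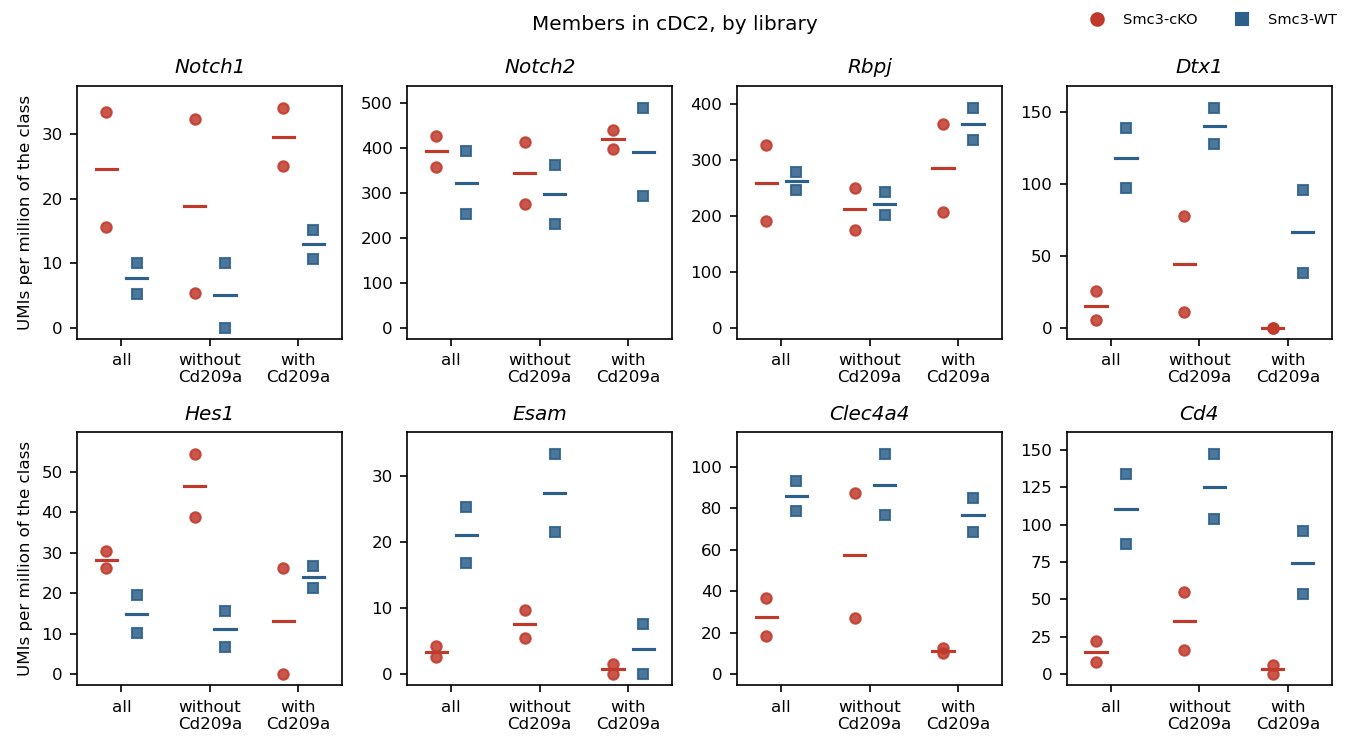
Levels of the 8 genes in cDC2 (CPM of the class, 1 panel per gene with its own axis), for all cDC2, cDC2 without and cDC2 with a Cd209a UMI. Each point is 1 library and each bar the mean of 2, Smc3-cKO left of Smc3-WT; in all cDC2 the Dtx1, Esam, Clec4a4 and Cd4 points of Smc3-cKO lie below those of Smc3-WT, and those of Notch2 and Rbpj overlap.

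Dtx1, which encodes Deltex1, a ubiquitin ligase that binds Notch and whose gene is a direct Notch target, was at 5.21 and 25.2 CPM in the Smc3-cKO cDC2 and at 139 and 97.3 CPM in the Smc3-WT cDC2. The genotypes did not overlap. The log2 change was -2.70 (SE 0.51, edgeR adjusted p 0.0823). At least 1 Dtx1 UMI was seen in 2 of 57 and 13 of 163 Smc3-cKO cells, and in 30 of 83 and 41 of 148 Smc3-WT cells. The gene lies on chromosome 5 from 120680203 to 120711867 (RefSeq, GRCm38.p6). In cDC1, 0 of 31 and 0 of 22 Smc3-cKO cells and 2 of 49 and 1 of 67 Smc3-WT cells had a Dtx1 UMI. Other classes of Smc3-WT replicate 1 had more, so cDC1 alone do not measure free RNA. In that library Dtx1 was at 5.97 CPM in cDC1, 31 CPM in pDC and 35.6 CPM in nonclassical monocytes. The part of free RNA in the Dtx1 levels was not tested.

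Promoter windows of RefSeq (build GRCm38.p6), from 250 bases before to 50 after a transcript start, were on hand for 4 of the 8 genes, and those of Dtx1 and Rbpj are shown because Dtx1 carried the largest genotype difference and Rbpj is the factor that binds Notch targets. Capitals mark the cores searched on both strands, TGGGAA or TTCCCA for Rbpj and GAGGAA or TTCCTC for PU.1. The Dtx1 window, chr5:120711620-120711919 on the minus strand, straddles the annotated 5′ end of the gene. The Rbpj window, chr5:53590096-53590395 on the plus strand, surrounds a transcript start inside the gene, whose annotated span is chromosome 5 from 53555779 to 53657445.
Dtx1 promoter: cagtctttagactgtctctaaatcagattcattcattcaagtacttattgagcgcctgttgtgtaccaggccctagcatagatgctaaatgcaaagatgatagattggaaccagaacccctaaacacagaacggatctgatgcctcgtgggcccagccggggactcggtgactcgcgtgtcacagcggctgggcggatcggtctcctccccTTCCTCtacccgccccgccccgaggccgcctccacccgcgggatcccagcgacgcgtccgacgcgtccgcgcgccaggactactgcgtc
Rbpj promoter: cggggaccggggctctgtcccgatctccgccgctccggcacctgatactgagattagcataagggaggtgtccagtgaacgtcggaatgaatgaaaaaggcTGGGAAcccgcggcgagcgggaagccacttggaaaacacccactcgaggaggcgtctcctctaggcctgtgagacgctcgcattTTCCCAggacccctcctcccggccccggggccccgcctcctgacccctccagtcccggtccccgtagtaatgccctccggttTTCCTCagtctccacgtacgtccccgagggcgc
The Dtx1 window held 1 PU.1 core, TTCCTC at position 212 from the 5′ end, and no Rbpj core. The Rbpj window shown held the Rbpj core as TGGGAA at position 102 and as TTCCCA at position 186, and a PU.1 core, TTCCTC, at position 268. Another Rbpj window on hand, chr5:53590236-53590535, shares 160 bases with it and is not shown. It held the same TTCCCA, there at position 46, and the same TTCCTC, there at position 128, but no TGGGAA. Of all 32851 promoter windows of that length, 25.6% held the Rbpj core and 28.3% the PU.1 core, so the matches are a description and not binding sites. The Notch1 window held 1 PU.1 core and no Rbpj core, and the Notch2 window held neither.

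Cd4, the helper T cell coreceptor that also marks most Esam-high cDC2, was at 7.82 and 22 CPM in Smc3-cKO cDC2 and at 134 and 86.9 CPM in Smc3-WT cDC2. Both Smc3-cKO libraries were below both Smc3-WT libraries. The log2 change was -2.68 (SE 0.46, edgeR adjusted p 0.0636). The 11 T cell markers summed to 65.2 and 62.9 CPM in Smc3-cKO cDC2 and to 228 and 55.8 CPM in Smc3-WT cDC2, highest in Smc3-WT replicate 1, which also had the highest Cd4, and lowest in Smc3-WT replicate 2. The part of T cell RNA in the Cd4 levels was not tested. Of the 85 cDC2 with a Cd4 UMI, 4 had a UMI of the T cell receptor chain gene Cd3e.

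Clec4a4, which encodes the inhibitory lectin DCIR2 (the 33D1 antigen of splenic cDC2), was at 18.2 and 36.7 CPM in Smc3-cKO cDC2 and at 78.6 and 93.4 CPM in Smc3-WT cDC2. The genotypes did not overlap, and the log2 change was -1.56 (SE 0.40, edgeR adjusted p 0.216). Clec4a4 has near copies in its gene cluster on chromosome 6, so reads may be split among them, and its counts are uncertain. Of 8 related lectin genes 4 were tested in cDC2 and 0 were called; 1 had an unadjusted p under 0.05. That gene, Clec4a3, was at 141 and 92.2 CPM in Smc3-cKO and at 53.3 and 40.2 CPM in Smc3-WT (log2 change 1.30, SE 0.35, edgeR adjusted p 0.263). Clec4a1, Clec4a2 and Clec4b1 had log2 changes of 0.19, -0.42 and -0.32.

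Esam, an adhesion molecule of endothelium that names the Esam-high cDC2, was sparse. Its level was 2.61 and 4.19 CPM in Smc3-cKO cDC2, from 1 and 4 UMIs, and 25.4 and 16.9 CPM in Smc3-WT cDC2, from 10 and 13 UMIs. The genotypes did not overlap, but the gene was not tested, and the floor of 3 UMIs lies at 2.24 CPM over the Smc3-cKO cells and 2.57 CPM over the Smc3-WT cells.

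Notch2, the receptor on which the Esam-high cDC2 depend, was at 427 and 358 CPM in Smc3-cKO cDC2 and at 393 and 252 CPM in Smc3-WT cDC2. Rbpj was at 190 and 327 CPM in Smc3-cKO and at 279 and 246 CPM in Smc3-WT. The libraries of the genotypes were interleaved for both genes. The log2 change was 0.29 for Notch2 (SE 0.32, edgeR adjusted p 0.934) and -0.01 for Rbpj (SE 0.33, edgeR adjusted p 0.999), and that of Rbpj took either sign under the alternatives tried, from -0.46 to 0.38. Notch1, the receptor used in T cell commitment, was at 15.6 and 33.5 CPM in Smc3-cKO cDC2, from 6 and 32 UMIs, and at 10.1 and 5.19 CPM in Smc3-WT cDC2, from 4 and 4 UMIs. Hes1, a transcriptional repressor that many Notch-receiving cells switch on, was at 26.1 and 30.4 CPM in Smc3-cKO cDC2 and at 10.1 and 19.5 CPM in Smc3-WT cDC2. Notch1 and Hes1 were thus higher in both Smc3-cKO libraries, opposite in direction to Dtx1. The log2 change of Hes1 was 0.84 (SE 0.52, edgeR adjusted p 0.825).

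Leaving out 1 library changed the calls of the 3 tested genes that were lower. Without Smc3-WT replicate 1, Dtx1 was called (log2 change -2.45, edgeR adjusted p 3.47e-06), as were Cd4 (-2.38, adjusted p 2.18e-05) and Clec4a4 (-1.68, adjusted p 0.0031). Without Smc3-WT replicate 2, the adjusted p was 3.28e-08 for Dtx1, 4.22e-08 for Cd4 and 0.0439 for Clec4a4. In these fits the lone Smc3-WT library is assumed to vary like the Smc3-cKO libraries. Without Smc3-cKO replicate 1, Cd4 was called (-2.31, adjusted p 0.0482) and Dtx1 was not (-2.22, adjusted p 0.0537). Without Smc3-cKO replicate 2, none of the 3 was called, with log2 changes of -4.43 for Dtx1, -3.76 for Cd4 and -2.24 for Clec4a4 and adjusted p-values of 0.0562, 0.102 and 0.38. The sign was negative in all 4 such fits for each of the 3 genes. The called sets are not compared between fits, because the number of genes called in cDC2 itself ran from 2 to 814.

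The differences were also read in cDC2 with no UMI of any T or B cell marker, a selection made after the data were seen. It left 30 and 79 Smc3-cKO cells, and 2 and 58 Smc3-WT cells, so Smc3-WT replicate 1 gives no usable level. Dtx1 was then at 5.42 and 31.7 CPM in Smc3-cKO and 51.8 CPM in Smc3-WT replicate 2. Cd4 was at 16.3 and 26.8 CPM in Smc3-cKO and 99.5 CPM in Smc3-WT replicate 2. Clec4a4 was at 5.42 and 39 CPM in Smc3-cKO and 71.7 CPM in Smc3-WT replicate 2. All 3 genes remained higher in the Smc3-WT library, and the gap of Dtx1 to Smc3-cKO replicate 2 was narrower than in all cDC2. Other marker lists moved with genotype in cDC2. The classical monocyte list, with 6 of its 7 genes detected and Vcan at 0, summed to 824 and 684 CPM in Smc3-cKO and 279 and 158 CPM in Smc3-WT. Most of each sum was Ccr2, at 495 and 538 CPM in Smc3-cKO and 208 and 106 CPM in Smc3-WT. That gene is read again below among those of the Esam-low cDC2, so the 2 readings are not separate. The cDC1 list, with 9 of 10 detected and Gcsam at 0, summed to 998 and 968 CPM in Smc3-cKO and 2330 and 1670 CPM in Smc3-WT. The plasmacytoid dendritic cell (pDC) list, with 9 of 10 detected and Klk1 at 0, summed to 1020 and 1440 CPM in Smc3-cKO and 931 and 589 CPM in Smc3-WT. Their part in the results was not tested.

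Counted per cell, fewer Smc3-cKO than Smc3-WT cDC2 carried any of the 4 genes with lower levels. At least 1 UMI of Dtx1, Esam, Clec4a4 or Cd4 was found in 15.8% (95% exact binomial interval 7.48 to 27.9) and 23.3% (17.1 to 30.6) of Smc3-cKO cDC2, against 62.7% (51.3 to 73) and 56.8% (48.4 to 64.9) of Smc3-WT cDC2. The intervals cover counting error only. With each cell thinned to 1000 UMIs the shares were 0% (exact interval up to 6.38%) and 6.75% in Smc3-cKO and 33.7% and 16.9% in Smc3-WT, leaving out 1 Smc3-cKO cell and 6 Smc3-WT cells of lower depth. The 4 genes were chosen for their lower levels in Smc3-cKO, so the order of the libraries restates that choice and is no further evidence. In cDC1 the unthinned share was 0% (exact interval up to 11.2%) and 9.09% in Smc3-cKO and 10.2% and 5.97% in Smc3-WT, at median depths of 9087 and 6725 UMIs in Smc3-cKO and 5110 and 4354 UMIs in Smc3-WT. The share in the Smc3-cKO cDC2 was above that of the cDC1 of the same library, with overlapping intervals. At least 2 of the 4 genes were found in 3 and 16 Smc3-cKO cDC2, against 25 and 37 Smc3-WT cDC2. Over all 451 cells, 32 of the 86 with a Dtx1 UMI also had a Cd4 UMI and 36 also had a Clec4a4 UMI. These counts mix the genotypes, which differ in these genes. Within Smc3-WT, 12 of 30 and 15 of 41 cells with Dtx1 had Cd4, beside 27 of 83 and 40 of 148 of all cDC2. For Clec4a4 it was 13 of 30 and 17 of 41, beside 20 of 83 and 42 of 148. Joint detection beyond chance was not tested.

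The second question was how the genes divide within cDC2. Cd209a, a lectin gene of the DC-SIGN family that is high in Esam-low cDC2, was used to split the class into cells with at least 1 and cells with no Cd209a UMI. Cells with Cd209a made up 54.4% and 63.2% of Smc3-cKO cDC2, against 21.7% and 33.8% of Smc3-WT cDC2. The means were 58.8% ± 6.23 in Smc3-cKO and 27.7% ± 8.55 in Smc3-WT (SD, n = 2 each), a difference of 31.1 percentage points. The exact two-sided permutation test gave p = 0.333, the smallest that 2 libraries against 2 allow. With cells thinned to 1000 UMIs, the means were 33.7% ± 12.3 in Smc3-cKO and 10.7% ± 4.85 in Smc3-WT. The groups did not overlap in either reading. Cells with Cd209a also held more of it in Smc3-cKO, with a median of 4 and 5 UMIs per cell, against 1.5 and 2 UMIs in Smc3-WT.

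Cells without Cd209a carried more Dtx1 and Cd4, and less Rbpj, than cells with Cd209a of the same library. These 3 of 6 tested genes passed edgeR's test with library as a block, against a background of 6.88% of 6048 genes called, 3.37% higher and 3.51% lower. Dtx1 was at 10.9 and 77.9 CPM in Smc3-cKO and 153 and 128 CPM in Smc3-WT in cells without Cd209a, and at 0 and 0 CPM in Smc3-cKO and 95.6 and 38.1 CPM in Smc3-WT in cells with it. It was higher in the cells without Cd209a in 4 of 4 libraries (log2 difference 2.17, SE 0.53, adjusted p 0.0202). Cd4 was at 16.3 and 55.2 CPM in Smc3-cKO and 147 and 104 CPM in Smc3-WT in cells without Cd209a, and at 0 and 6.19 CPM in Smc3-cKO and 95.6 and 53.3 CPM in Smc3-WT in cells with it. It too was higher in 4 of 4 libraries (log2 difference 1.42, SE 0.40, adjusted p 0.0424). Rbpj was at 174 and 250 CPM in Smc3-cKO and 243 and 201 CPM in Smc3-WT without Cd209a, and at 206 and 364 CPM in Smc3-cKO and 393 and 335 CPM in Smc3-WT with it. It was lower without Cd209a in 4 of 4 libraries (log2 difference -0.59, SE 0.15, adjusted p 0.0297).

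These calls did not hold when single libraries were left out. Dtx1 was not called without Smc3-WT replicate 2 (log2 difference 2.54, edgeR adjusted p 0.0853), and Cd4 was not called without Smc3-cKO replicate 1 (adjusted p 0.0854), Smc3-cKO replicate 2 (0.194) or Smc3-WT replicate 2 (0.0978). Rbpj was not called without Smc3-cKO replicate 2 (adjusted p 0.0686), Smc3-WT replicate 1 (0.0723) or Smc3-WT replicate 2 (0.217). The direction was kept by each of these 3 genes in the 4 fits that leave out a library. The log2 difference was -0.37 for Notch2 (SE 0.14, adjusted p 0.143) and 1.15 for Clec4a4 (SE 0.40, adjusted p 0.104). Clec4a4 was called without Smc3-WT replicate 1 (log2 difference 1.49, adjusted p 0.0393). Hes1 had a log2 difference of 0.51 (SE 0.68, adjusted p 0.795). Esam, not tested, was at 5.43 and 9.73 CPM in Smc3-cKO and 33.3 and 21.6 CPM in Smc3-WT without Cd209a, and at 0 and 1.55 CPM in Smc3-cKO and 0 and 7.61 CPM in Smc3-WT with it.

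**Figure D2:**
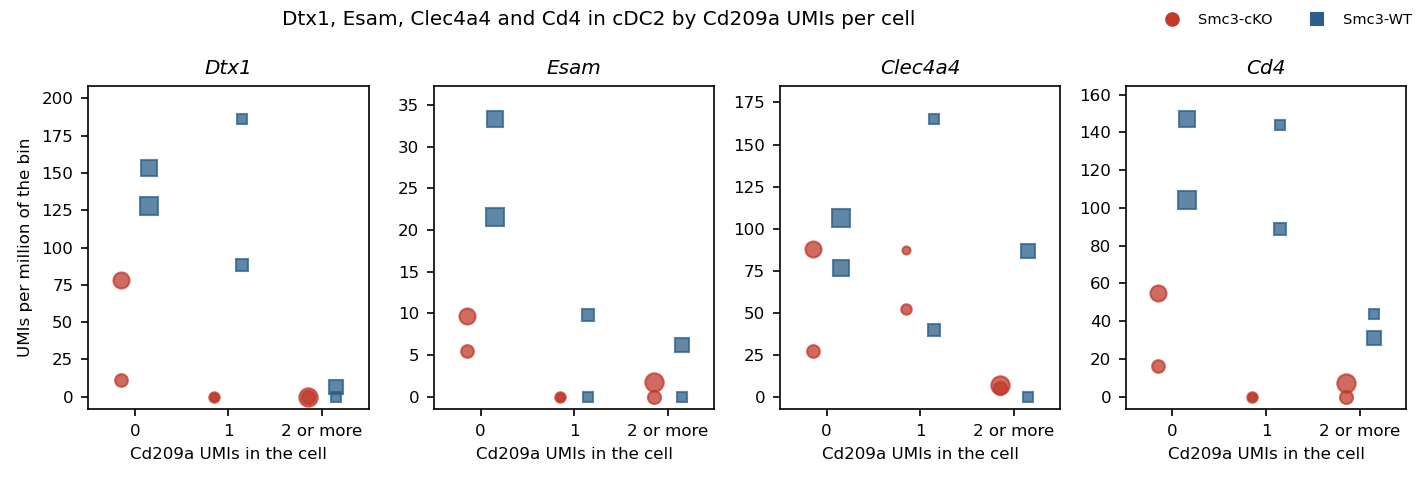
Levels of Dtx1, Esam, Clec4a4 and Cd4 (CPM of the bin) in cDC2 with 0, 1 and 2 or more Cd209a UMIs, 1 point per library, Smc3-cKO left of Smc3-WT, with marker area growing with the number of cells. Dtx1 is at 0 in all Smc3-cKO cells with Cd209a and, in Smc3-WT, reaches 186 CPM at 1 UMI and 6.21 CPM at 2 or more.

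The number of Cd209a UMIs divided the Smc3-WT cells further, as a description of few cells. In Smc3-WT cells with 1 Cd209a UMI, Dtx1 was at 186 and 88.6 CPM, from 9 and 20 cells, beside 153 and 128 CPM in Smc3-WT cells with 0. In cells with 2 or more, it was at 0 and 0 CPM in Smc3-cKO, from 29 and 92 cells, and at 0 and 6.21 CPM in Smc3-WT, from 9 and 30 cells. The Dtx1 of Smc3-WT cells with Cd209a thus came from cells with a single Cd209a UMI, all but 1 UMI. Clec4a4 differed in this from Dtx1 in Smc3-WT replicate 2, where it was at 86.9 CPM in cells with 2 or more Cd209a UMIs, against 0 CPM in Smc3-WT replicate 1 and 5.32 and 7.03 CPM in Smc3-cKO. Cd4 at 2 or more was at 0 and 7.03 CPM in Smc3-cKO and 43.8 and 31 CPM in Smc3-WT.

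Within each part of the split, Dtx1 and Cd4 had lower levels in both Smc3-cKO libraries than in the Smc3-WT libraries, with no call. In cells with no T or B cell marker UMI this order did not hold for Dtx1 in cDC2 without Cd209a. In cDC2 with Cd209a, Dtx1 had 0 UMIs in the 31 and 103 cells of the Smc3-cKO libraries, and 19 UMIs in the 18 and 50 cells of the Smc3-WT libraries. The Smc3-WT level over both libraries, 53.3 CPM, was 15 times the floor of 3 UMIs over the Smc3-cKO group, at 3.55 CPM. That ratio takes the Smc3-WT level as exact, though its libraries were at 95.6 and 38.1 CPM, so it is no bound. Dtx1 was not tested there. That Smc3-WT level rests on cells with a single Cd209a UMI, since with 2 or more Dtx1 was at 0 and 0 CPM in Smc3-cKO and 0 and 6.21 CPM in Smc3-WT, which gives no difference to read. For Cd4, at 0 and 6.19 CPM in Smc3-cKO and 95.6 and 53.3 CPM in Smc3-WT, the log2 change was -3.79 (SE 0.80, edgeR adjusted p 0.118). For Clec4a4, at 10 and 12.4 CPM in Smc3-cKO and 85 and 68.5 CPM in Smc3-WT, it was -2.64 (SE 0.57, edgeR adjusted p 0.134). The genotypes did not overlap for any of these 3 genes. This class has only 18 cells in Smc3-WT replicate 1 and was tested as an exception to the minimum of 20. Of 4 genes of the set tested in cDC2 with Cd209a, 0 were called by edgeR and 2 had an unadjusted p under 0.05, against a background of 0.44% of 4541 genes called and 277 with an unadjusted p under 0.05; 0 were called by DESeq2. Notch1 was at 25.1 and 34.1 CPM in Smc3-cKO and 10.6 and 15.2 CPM in Smc3-WT cDC2 with Cd209a, again higher in both Smc3-cKO libraries, and not tested. Hes1, at 0 and 26.3 CPM in Smc3-cKO and 21.3 and 26.7 CPM in Smc3-WT, overlapped there.

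In cDC2 without Cd209a, 0 of 6 were called by edgeR and DESeq2 and 3 had an unadjusted p under 0.05; the background was 0% of 5527 genes by edgeR, of which 280 had an unadjusted p under 0.05 and 14 were called by DESeq2. Dtx1 had a log2 change of -1.50 (SE 0.62, edgeR adjusted p 0.954), and Cd4 had -1.67 (SE 0.52, edgeR adjusted p 0.772). The genotypes did not overlap for these genes or for Esam. Clec4a4, at 27.1 and 87.6 CPM in Smc3-cKO and 76.6 and 106 CPM in Smc3-WT, overlapped between the genotypes (log2 change -0.60, SE 0.53, edgeR adjusted p 0.999). Hes1, at 54.3 and 38.9 CPM in Smc3-cKO and 6.66 and 15.7 CPM in Smc3-WT, did not overlap and was higher in Smc3-cKO (log2 change 1.91, SE 0.69, edgeR adjusted p 0.878). Notch1, not tested here, overlapped, at 5.43 and 32.4 CPM in Smc3-cKO and 9.99 and 0 CPM in Smc3-WT. Smc3-cKO replicate 2 was above replicate 1 in the 4 genes of the Esam-high cells, with Dtx1 at 77.9 CPM against 10.9 CPM in replicate 1. In the 14 and 31 Smc3-cKO cells without Cd209a and with no T or B cell marker UMI, Dtx1 was at 11.6 and 92.1 CPM, against 60.4 CPM in 41 such cells of Smc3-WT replicate 2. Clec4a4 was at 11.6 and 92.1 CPM in Smc3-cKO and 54.3 CPM in Smc3-WT replicate 2. Cd4 was at 34.7 and 70.8 CPM in Smc3-cKO and 121 CPM in Smc3-WT replicate 2. Smc3-cKO replicate 2 was thus above Smc3-WT replicate 2 for Dtx1 and Clec4a4 and below it for Cd4, and Smc3-WT replicate 1, with 2 such cells, gives no usable level. Notch2 had log2 changes of 0.23 (SE 0.37) without and 0.15 (SE 0.33) with Cd209a, and Rbpj had -0.04 (SE 0.32) and -0.31 (SE 0.34); without 1 library or another these 4 values changed sign.

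The difference of the genotype effect between the cells without and with Cd209a was tested itself, and no gene of the set passed, against a background of 0.0661% of 6048 genes. The log2 difference was 2.38 for Cd4 (SE 0.78, edgeR adjusted p 0.744) and 2.15 for Clec4a4 (SE 0.68, edgeR adjusted p 0.692). For Dtx1 it was 6.01 (SE 1.28, edgeR adjusted p 0.254), a fitted value that rests on 0 counts in the Smc3-cKO cells with Cd209a and is no bound. Dtx1 passed when Smc3-cKO replicate 1 (6.51, adjusted p 0.00478) or Smc3-WT replicate 2 (6.42, adjusted p 0.00938) was left out.

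**Figure D3:**
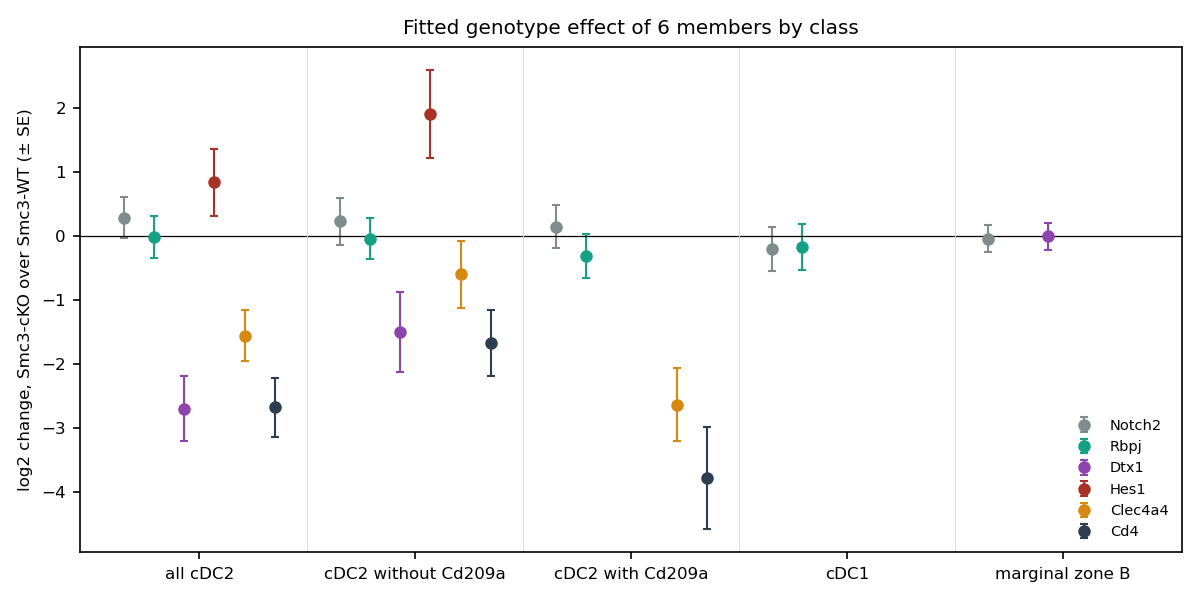
Fitted log2 change, Smc3-cKO over Smc3-WT, of 6 genes with its standard error (edgeR, 2 libraries per genotype) in cDC2, its parts without and with Cd209a, cDC1 and marginal zone B cells. Dtx1, Clec4a4 and Cd4 lie below 0 in the cDC2 classes, from -3.79 to -0.60, while Notch2 and Rbpj lie within 0.31 of 0 and Dtx1 in marginal zone B cells is at 0.00; a class lacks a gene that was not tested there or whose change is not given.

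cDC2 differed from cDC1 in 4 of the 5 genes tested, with library as a block, against a background of 17.1% of 7030 genes called, 9.73% higher in cDC2 and 7.34% lower. Dtx1 was higher in cDC2 in 4 of 4 libraries (log2 difference 4.68, SE 0.51, edgeR adjusted p 6.15e-06), as was Clec4a4 (5.72, SE 0.65, edgeR adjusted p 9.16e-06). Over the 4 libraries Dtx1 had 156 UMIs in cDC2 and 3 in cDC1, a ratio of the CPM of 23.4 with a counting interval from 7.86 to 115. Clec4a4 had 145 UMIs in cDC2 and 1 in cDC1, a ratio of 65.3 (11.5 to 2600), and Esam, not tested, had 28 and 1, a ratio of 12.6 (2.08 to 515). Cd4 was higher in cDC2 in 3 of 4 libraries (log2 difference 2.67, SE 0.66, edgeR adjusted p 0.00922), and in Smc3-cKO replicate 2 cDC1 were at 41.5 CPM from 6 UMIs in 2 cells. Cd4 was not called without Smc3-WT replicate 1 (1.81, adjusted p 0.13) or Smc3-WT replicate 2 (1.99, adjusted p 0.0916).

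Rbpj was the gene that was lower in cDC2 than in cDC1, in 4 of 4 libraries (log2 difference -0.80, SE 0.17, edgeR adjusted p 0.00323). It was at 394 and 429 CPM in Smc3-cKO cDC1 and 489 and 408 CPM in Smc3-WT cDC1. Notch2 was at 294 and 242 CPM in Smc3-cKO cDC1 and 316 and 285 CPM in Smc3-WT cDC1, and did not pass against cDC2 (log2 difference 0.24, SE 0.18, edgeR adjusted p 0.42). Between genotypes within cDC1, 0 of 2 genes were called by edgeR and 0 had an unadjusted p under 0.05, against a background of 0.471%. The log2 change was -0.20 for Notch2 (SE 0.35) and -0.17 for Rbpj (SE 0.36). The difference of the genotype effect between cDC2 and cDC1 was called for 0 genes of the set, against a background of 0.213%.

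Marginal zone B cells, the blood-facing B cells at the edge of the follicle, gave a second Notch2-dependent population with many more cells. The Cre line is not given, so whether Smc3 was deleted in these B cells is not known. An unchanged level in them therefore does not show how they respond to loss of Smc3. They numbered 203 and 607 in the Smc3-cKO libraries and 233 and 515 in the Smc3-WT libraries. Dtx1 was at 252 and 254 CPM in Smc3-cKO and at 265 and 234 CPM in Smc3-WT marginal zone B cells, which overlapped (log2 change 0.00, SE 0.21, edgeR adjusted p 1). Notch2 was at 265 and 235 CPM in Smc3-cKO and 274 and 233 CPM in Smc3-WT (log2 change -0.04, SE 0.21). In cDC2 alone the change of Dtx1 was not called by edgeR, as given above. The genotype effect on Dtx1 differed between cDC2 and marginal zone B cells in a joint fit, which takes 1 spread per gene from both classes. The difference of the log2 changes was -2.67 (SE 0.40, edgeR adjusted p 0.00106), the 1 call in the set against a background of 0.959% of 9907 genes. It passed in each of the 4 fits that leave out a library, with values from -4.37 to -2.18 and adjusted p-values from 2.28e-06 to 0.0378. Within marginal zone B cells edgeR called 0 of 5 genes of the set and 0% of 9996 genes, of which 196 had an unadjusted p under 0.05; 19 were called by DESeq2, none of them among Dtx1 and Notch2.

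Against follicular B cells, marginal zone B cells had more Dtx1 in every library. Dtx1 was at 58.5 and 51.6 CPM in Smc3-cKO and 64.7 and 45.9 CPM in Smc3-WT follicular B cells, well below the marginal zone levels given above. The log2 difference was 2.16 (SE 0.07, edgeR adjusted p 3.04e-11), against a background of 32.4% of 12970 genes called, 16.8% higher and 15.6% lower. Of 6 genes tested 4 passed. Rbpj was higher in marginal zone B cells in 4 of 4 libraries (0.36, SE 0.07, edgeR adjusted p 0.00121). Notch2 was lower in them in 4 of 4 libraries (-0.41, SE 0.06, edgeR adjusted p 5.32e-05). Hes1 was higher in 3 of 4 libraries (0.42, SE 0.12, edgeR adjusted p 0.0159), but not without Smc3-cKO replicate 1 (adjusted p 0.0714), Smc3-cKO replicate 2 (0.232) or Smc3-WT replicate 2 (0.122).

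**Figure D4:**
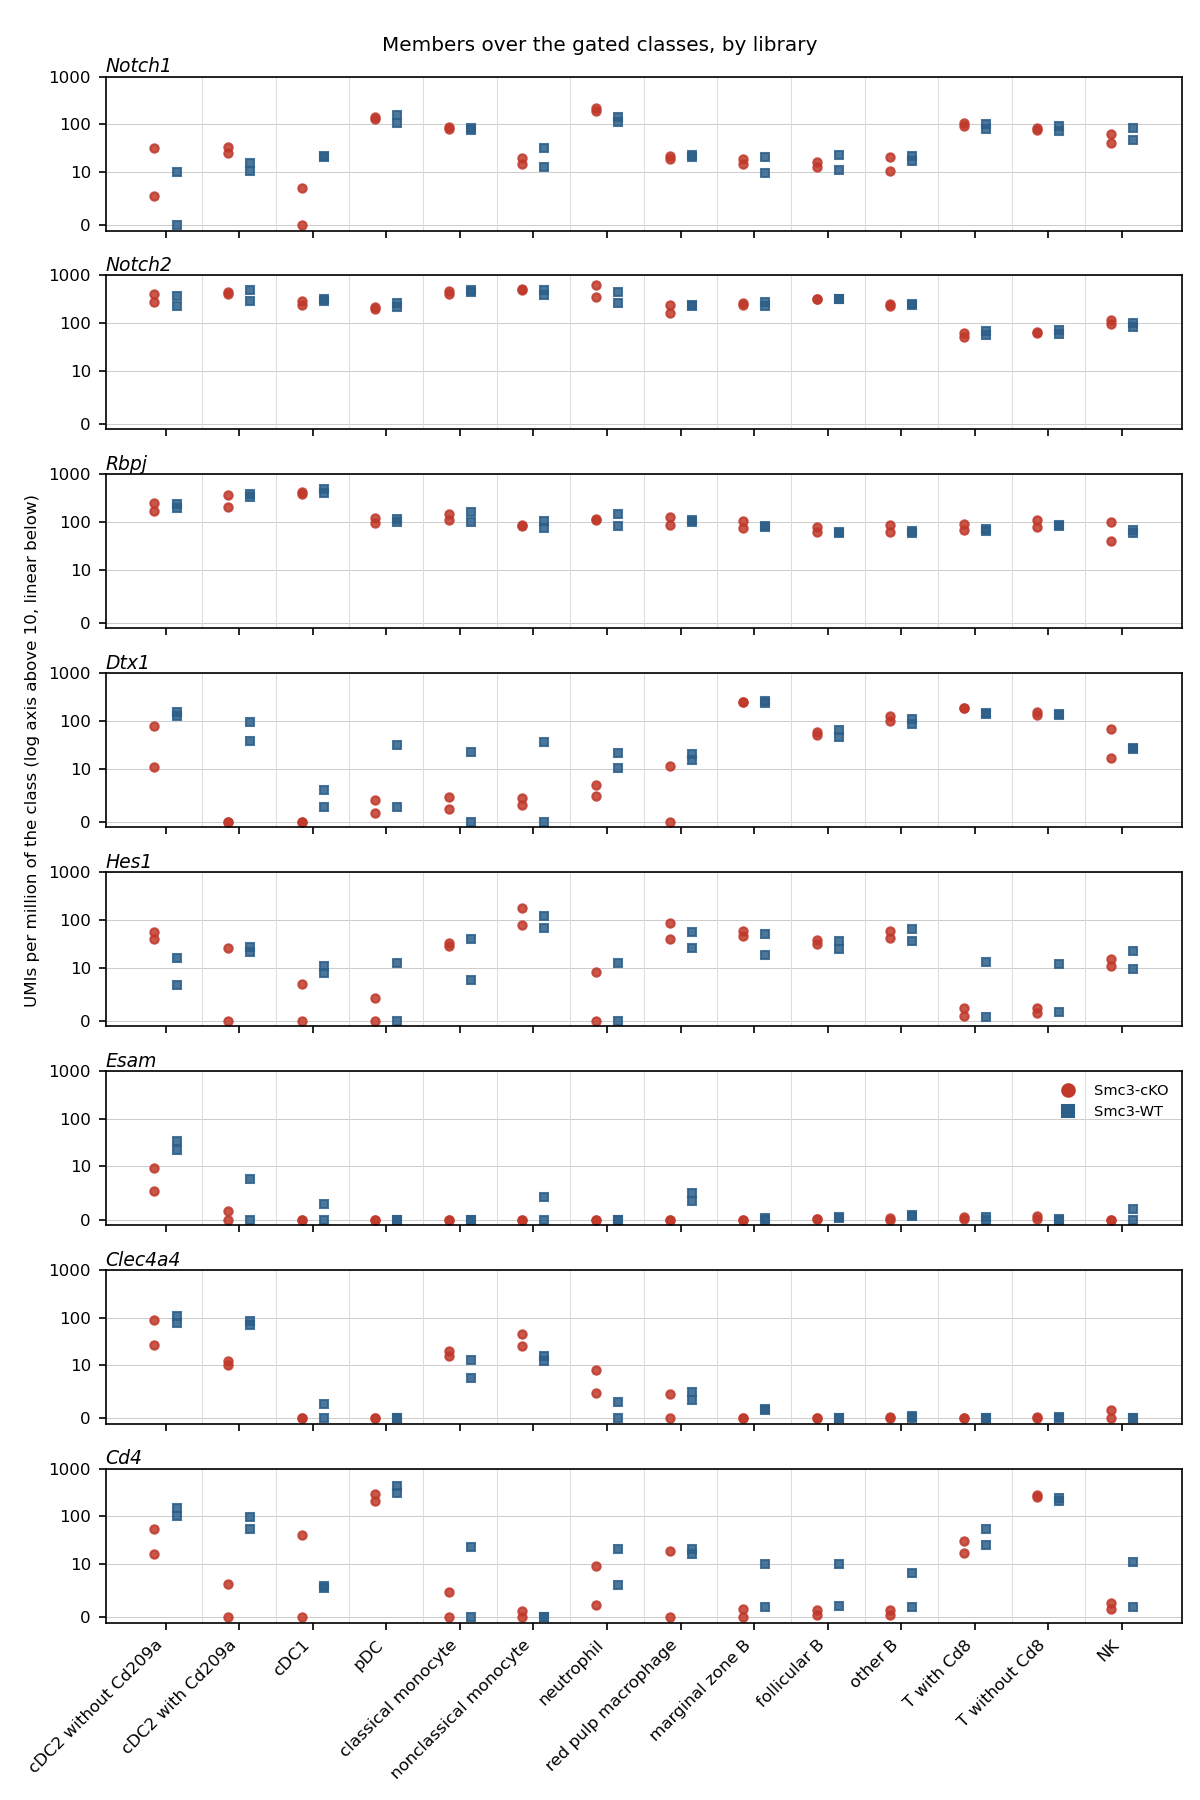
Levels of the 8 genes (CPM of the class, on an axis that is linear near 0 and logarithmic above) across cell classes, 1 point per library, Smc3-cKO left of Smc3-WT. Dtx1 is highest in marginal zone B cells at 234 to 265 CPM, Rbpj in cDC1 at 394 to 489 CPM, and Cd4 in pDC and T cells without Cd8.

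Across the 14 classes compared, each gene had its own order, given by the mean of the 4 libraries. Notch1 was highest in neutrophils, at 188 and 216 CPM in Smc3-cKO and 145 and 114 CPM in Smc3-WT, and in pDC at 131 and 143 CPM in Smc3-cKO and 105 and 153 CPM in Smc3-WT. T cells with Cd8 at a mean of 94.5 CPM, classical monocytes at 82.1, T cells without Cd8 at 80.5 and NK cells at 57.8 followed, each overlapping its neighbour. All other classes, the cDC2 among them, lay below NK cells without overlap, at means of 12 to 21.2 CPM. Notch2 ran from 469 CPM in nonclassical monocytes and 454 in classical monocytes through 427 in neutrophils and 405 in cDC2 with Cd209a to 218 in red pulp macrophages, with every neighbour overlapping. NK cells at 98.8 CPM and T cells without and with Cd8, at 64.8 and 59.5 CPM, lay below that run without overlap.

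Rbpj was highest in the conventional dendritic cells. cDC1 at a mean of 430 CPM did not overlap cDC2 with Cd209a at 324 CPM, which overlapped cDC2 without it at 217 CPM. The next class, classical monocytes, was at 131 CPM and did not overlap, and the rest ran to 64.8 CPM in follicular B cells. Hes1 was at 177 and 78 CPM in Smc3-cKO and 67.3 and 122 CPM in Smc3-WT nonclassical monocytes, its highest class. Red pulp macrophages at a mean of 52.2 CPM, other B cells at 49.8 CPM and marginal zone B cells at 43.5 CPM overlapped one another. The order of Hes1 therefore has no clear step.

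Dtx1 was highest in lymphocytes. Marginal zone B cells did not overlap T cells with Cd8, at 189 and 189 CPM in Smc3-cKO and 146 and 139 CPM in Smc3-WT, and T cells without Cd8, at 133 and 155 CPM in Smc3-cKO and 130 and 139 CPM in Smc3-WT, did not overlap other B cells, which come next. Other B cells at a mean of 106 CPM, cDC2 without Cd209a at 92.4 CPM and follicular B cells at 55.2 CPM overlapped as neighbours. Dtx1 was low in monocytes and pDC of 3 libraries but not of Smc3-WT replicate 1. It was at 2.39 and 4.74 CPM in Smc3-cKO and 22.8 and 0 CPM in Smc3-WT classical monocytes, and at 1.68 and 4.2 CPM in Smc3-cKO and 31 and 2.88 CPM in Smc3-WT pDC. The level of 139 CPM in the cDC2 of that library is to be read beside these values.

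The 3 surface genes had narrower ranges of cell types. Esam had its highest mean, 17.5 CPM, in cDC2 without Cd209a, and had a mean of at most 2.29 CPM, in cDC2 with Cd209a, in the other 13 classes compared; it was at 0 in pDC, neutrophils and classical monocytes. Clec4a4 was at a mean of 74.4 CPM in cDC2 without and 44 CPM in cDC2 with Cd209a, which overlapped. It was next highest in nonclassical monocytes, at 25.9 and 45.5 CPM in Smc3-cKO and 15.8 and 12.6 CPM in Smc3-WT, where the genotypes did not overlap and both Smc3-cKO libraries were higher, the reverse of cDC2; it was not tested there. Cd4 was highest in pDC, which in mice carry it, at 292 and 210 CPM in Smc3-cKO and 310 and 423 CPM in Smc3-WT (log2 change -0.63, SE 0.31, edgeR adjusted p 1). T cells without Cd8 were at 278 and 251 CPM in Smc3-cKO and 208 and 247 CPM in Smc3-WT, and did not overlap the cDC2 below them. In pDC, edgeR called 0 of 4 genes of the set, 0 had an unadjusted p under 0.05, and the background was 0% of 5233 genes, of which 204 had an unadjusted p under 0.05 and 0 were called by DESeq2.

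In the other 9 classes with a genotype test, edgeR called 0 genes of the set. The background was 0.0557% in NK cells, 0.0814% in nonclassical monocytes, 0.278% in red pulp macrophages and 0% in follicular B cells, other B cells, both T cell classes, neutrophils and classical monocytes. The 1 unadjusted p under 0.05 among them was that of Cd4 in follicular B cells, where Smc3-WT replicate 1 was at 10.3 CPM and the mean of the 4 libraries was 3.53 CPM. Cd4 in that library was also at 10.2 CPM in marginal zone B cells and 10.9 CPM in NK cells, beside 134 CPM in its cDC2.

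The genes most alike to each in their pattern over classes were ranked by Pearson's r of log2(CPM + 10) over 52 sums, 13 classes in 4 libraries, as a description; the sums share libraries and differ in depth. For Dtx1 they were S1pr1, Simc1 and A930005H10Rik, each at 0.83. For Esam they included Tmem150c at 0.93 and Ptger3 at 0.91, although Esam itself stays below the 20 CPM asked of the compared genes. For Clec4a4 they were Sirpb1a, Cyp4f16 and Rin2, at 0.89, 0.87 and 0.84, and for Cd4 they were St8sia1, Il1rl2 and Zc3h12b, at 0.86, 0.83 and 0.77. Notch2 went with March1 at 0.91 and the Src-family kinase gene Lyn at 0.90, among others. Rbpj went with Anpep and Slamf8 at 0.86 and Arhgap22 at 0.85. For Notch1 they included Qsox1 at 0.82 and Pxylp1 at 0.78, and for Hes1 they were Fam43a, Nlrc4 and Pou2f2, at 0.79. None of the 8 genes was among the 3 most alike to another.

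Other genes of the pathway were read from a list of 52 ligands, receptors, modifying enzymes, coactivators and targets. In all cDC2, 31 were tested, 0 rose and 0 fell, and 2 had an unadjusted p under 0.05. Their median log2 change was 0.14, beside 0.02 over all genes tested. The receptor Notch3 was at 20.9 and 26.2 CPM in Smc3-cKO and 5.07 and 2.59 CPM in Smc3-WT cDC2 (log2 change 2.70, SE 0.68, edgeR adjusted p 0.216). Aph1a, a subunit of the gamma-secretase that cuts Notch, was at 57.3 and 50.3 CPM in Smc3-cKO and 27.9 and 23.3 CPM in Smc3-WT (1.06, SE 0.40, edgeR adjusted p 0.491). Another subunit, Psenen, was at 91.2 and 63.9 CPM in Smc3-cKO and 17.8 and 62.3 CPM in Smc3-WT (0.79, SE 0.51, edgeR adjusted p 0.835). Spen, a corepressor that binds Rbpj, was at 39.1 and 70.2 CPM in Smc3-cKO and 93.8 and 85.6 CPM in Smc3-WT (-0.66, SE 0.35, edgeR adjusted p 0.756). The libraries of the genotypes did not overlap for these 4 genes, which had the largest changes of the list at 20 CPM or more.

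Between cDC2 and cDC1, 31 of the 52 genes were tested, of which 2 were higher and 1 lower in cDC2, beside 9.73% higher and 7.34% lower over all genes tested, and nothing is read from these counts. Maml3, a coactivator of the Notch and Rbpj complex, was at 472 and 471 CPM in Smc3-cKO and 609 and 454 CPM in Smc3-WT cDC2, and at 135 and 104 CPM in Smc3-cKO and 122 and 123 CPM in Smc3-WT cDC1 (log2 difference 1.98, SE 0.19, edgeR adjusted p 1.3e-06). Itch, a ubiquitin ligase that acts on Notch, was also higher in cDC2 (0.55, SE 0.17, edgeR adjusted p 0.0341). The receptor Notch4 was lower, at 0 and 0 CPM in Smc3-cKO and 2.54 and 1.3 CPM in Smc3-WT cDC2, and at 7.09 and 6.91 CPM in Smc3-cKO and 26.9 and 43.8 CPM in Smc3-WT cDC1 (edgeR adjusted p 0.00226). Between cDC2 without and with Cd209a, 30 were tested and 0 were called.

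Between marginal zone and follicular B cells, 41 of the 52 were tested, of which 5 were higher and 12 lower in marginal zone B cells, beside 16.8% higher and 15.6% lower over all genes tested. Nothing is read from these counts either. The 5 higher genes were the target Hes5 (log2 difference 1.71, SE 0.28), Dtx4, a relative of Dtx1 (1.68, SE 0.32), the coactivator Maml2 (0.34, SE 0.07), Spen (0.34, SE 0.07) and Mib1, a ligase for Notch ligands (0.25, SE 0.08). The lower genes included Lfng, a glycosyltransferase that modifies Notch (-1.24, SE 0.20), and Maml3 (-1.16, SE 0.07). Maml3 thus was higher in cDC2 than in cDC1 and lower in marginal zone than in follicular B cells. The other 10 were Psen2, Maml1, Ep300, Crebbp, Kdm5a, Cir1, Numb, Itch, Mib2 and Dtx3l, with log2 differences from -1.23 to -0.16.

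Genes of the Esam-low cDC2 were read as a counterpart, from a list of 10 that includes Cd209a. All 10 were tested in all cDC2, 0 were called, and 6 had an unadjusted p under 0.05. The median log2 change was 1.0, beside 0.02 over all genes tested. The list was chosen with results of these libraries known, so its direction is no independent evidence. The chemokine receptor gene Ccr2 was at 495 and 538 CPM in Smc3-cKO and 208 and 106 CPM in Smc3-WT cDC2 (log2 change 1.74, SE 0.36, edgeR adjusted p 0.127). Cx3cr1, the fractalkine receptor, was at 159 and 224 CPM in Smc3-cKO and 20.3 and 63.6 CPM in Smc3-WT (2.08, SE 0.46, edgeR adjusted p 0.146). Clec10a, a galactose-binding lectin, was at 31.3 and 130 CPM in Smc3-cKO and 10.1 and 22 CPM in Smc3-WT, and Cd209a itself was at 472 and 674 CPM in Smc3-cKO and 98.9 and 183 CPM in Smc3-WT. The genotypes did not overlap for these 4 genes. Not all of the list went this way. Mgl2 overlapped, at 0 and 43 CPM in Smc3-cKO and 65.9 and 9.08 CPM in Smc3-WT (log2 change -0.38, SE 1.08, edgeR adjusted p 0.975). Cd7 had a log2 change of 0.31 (SE 0.31, edgeR adjusted p 0.915). Nor was the direction limited to cDC2. In cDC1, 4 of the list were tested and 0 were called. Ccr2 was at 305 and 235 CPM in Smc3-cKO and 65.7 and 159 CPM in Smc3-WT cDC1. The listed gene Clec12a was at 163 and 173 CPM in Smc3-cKO and 80.6 and 110 CPM in Smc3-WT cDC1. The genotypes did not overlap for either, while Cx3cr1 and Lyz2 overlapped in cDC1. Whether the lower levels of Dtx1, Esam, Clec4a4 and Cd4 over all cDC2 come from fewer cells of the Esam-high kind or from less RNA per cell cannot be told apart from the sums.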

How the data were processed

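The deposited matrices hold UMI counts per gene and cell, made by the authors with Cell Ranger 7.0.0 per the file headers, against mm10 per the submitters' processing notes; how reads were assigned among near-identical genes is not given in the sources used here. The 8 genes and the gene lists were chosen with earlier results of these data known. Cells passed with 200 genes or more and mitochondrial UMIs up to 10%, and doublets called by Scrublet (scanpy 1.11.5) were removed, which left 44803 of 53644 barcodes. The caller marked fewer cells than loading predicts in every library (1.03% to 6.41%, against 7.26% to 12.9%). A cell joined a lineage with at least 3 of its markers detected and a marker share at least 1.25 times that of the next list; within conventional dendritic cells it needed at least 2 markers and the highest share, and marginal zone B cells needed at least 3. These limits were set after the data were seen, without the 8 genes, and left 6.4% of cells unassigned. In all, 735 cells were gated as conventional dendritic cells. A further 104 had the conventional dendritic cell list in the lead but missed the 1.25 limit, and are among the unassigned cells. For each class the counts of a library were added up and tested with edgeR 4.0.16 (R 4.3.3; quasi-likelihood F test, TMM, filterByExpr, Benjamini-Hochberg within a class, threshold 0.05), with genotype as the term, or with library as a block for differences between classes. Classes needed 20 cells in every library, except cDC2 with Cd209a, which was tested with 18 cells in Smc3-WT replicate 1. CPM values are unscaled sums per 1000000 UMIs. The fits were tested on simulated counts. DESeq2 1.42.0, library totals, no filter, kept doublets, at most 5% mitochondrial UMIs, a stricter Cd209a split (at least 2 UMIs, or 0 in cells of at least 2000 UMIs), Leiden clusters made without the 8 genes, a replicate block and leaving out each library were the alternatives. All 8 genes are named for the genotype comparison in all cDC2, and only some of them in other comparisons. Of the Notch pathway list, genes past the test are named. For the lists in all cDC2, where none passed, at least the 4 with the largest change at 20 CPM or more are named. Library depths were 40367056 and 46678046 UMIs for Smc3-cKO and 51299056 and 48970568 UMIs for Smc3-WT; intervals and floors cover counting error only. Promoter sequences and positions are from RefSeq tables of GRCm38.p6. Some genes alike in pattern to Notch1, Notch2 and Esam are not reported here.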

Additional observations from a re-analysis of the deposited data

Results flagged for a closer look

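The genotype effect on Dtx1 differed between 2 cell classes of the same libraries. In cDC2 Dtx1 was at 5.21 and 25.2 CPM in Smc3-cKO and 139 and 97.3 CPM in Smc3-WT, and in marginal zone B cells at 252 and 254 CPM in Smc3-cKO and 265 and 234 CPM in Smc3-WT. The difference of the log2 changes, cDC2 minus marginal zone B cells, was -2.67 (SE 0.40, edgeR adjusted p 0.00106). The fit took 1 spread per gene from both classes together. Whether Smc3 was deleted in the marginal zone B cells is not known from the labels. In cDC2 alone the log2 change was -2.70 (SE 0.51, edgeR adjusted p 0.0823) and was not called. Cells of the genotypes were also spread unlike over the clusters with cDC2 markers, which hold cells outside the gate. The part of this in the difference was not tested.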

How the results depend on the processing

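With 57 to 163 cDC2 per library the counts of called genes moved with most settings, while the signs of Dtx1, Clec4a4 and Cd4 in the cDC2 classes were the same under every alternative that gave a value. The reading in cells with no T or B cell marker UMI is not among these alternatives. There, in cDC2 without Cd209a, Smc3-cKO replicate 2 was above Smc3-WT replicate 2 for Dtx1 and Clec4a4. In all cDC2, 27 genes were called, against 64 with DESeq2, 64 with library totals, 231 with no filter, 64 at 5% mitochondrial UMIs, 178 in Leiden clusters and 2 to 814 with a library left out. In cDC2 with Cd209a, 20 were called, against 69 with no filter, 6 with the stricter split and 25 to 156 with a library left out. In cDC2 without Cd209a, 0 were called, against 14 with DESeq2, 101 with no filter, 10 at 5% mitochondrial UMIs and 0 to 70 with a library left out. In cDC1, 26 were called, against 16 with DESeq2, 0 with no filter, 0 at 5% mitochondrial UMIs and 31 to 132 with a library left out. In pDC, 0 were called, against 20 with no filter and 0 to 46 with a library left out. In marginal zone B cells, 0 were called, against 19 with DESeq2, 3 with library totals, 92 with no filter, 3 at 5% mitochondrial UMIs and 0 to 31 with a library left out. In follicular B cells, 0 were called, against 10 with DESeq2 and 0 to 133 with a library left out. The cause was not tested.

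With a library left out, 226 to 374 genes were called between cDC2 without and with Cd209a (416 with all libraries), 802 to 1143 between cDC2 and cDC1 (1200) and 2957 to 4568 between the B cell classes (4201). The difference of the genotype effect was then called for 9 to 34 genes within cDC2 (4), 8 to 125 genes between cDC2 and cDC1 (15) and 15 to 258 genes between cDC2 and marginal zone B cells (95). The difference in the share of cDC2 with Cd209a was 25 to 37.1 percentage points with a library left out and 23 thinned, against 31.1.

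Values near 0 changed sign. Rbpj in all cDC2 (-0.01) was at 0.02 with no filter, 0.02 with doublets kept, 0.10 at 5% mitochondrial UMIs and 0.38 in Leiden clusters, and -0.46 to 0.31 with a library left out. In cDC2 without Cd209a it was at 0.13 at 5% mitochondrial UMIs and -0.40 to 0.18 with a library left out, and with Cd209a at -0.80 to 0.02. Notch2 ran from -0.15 to 0.45 with and -0.09 to 0.52 without Cd209a. In marginal zone B cells Dtx1 (0.00) was at -0.01 with DESeq2, 0.02 with library totals, 0.04 with no filter, -0.24 at 5% mitochondrial UMIs and -0.08 to 0.05 with a library left out. Notch2 there was at 0.00 with no filter, 0.01 with doublets kept and -0.10 to 0.02 with a library left out. Hes1 between cDC2 without and with Cd209a ran from -0.21 to 1.05.

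The replicate numbers are shared by the genotypes, but the labels do not say that they pair libraries, and there are only 2 pairs. The correlation of same-numbered deviations was 0.16 in all cDC2, 0.09 with and 0.11 without Cd209a, 0.19 in cDC1, 0.31 in pDC, 0.44 in marginal zone and 0.58 in follicular B cells. With the replicate block, 83 genes were called in all cDC2, 66 in cDC2 with Cd209a, 13 in cDC1, 40 in pDC, 42 in marginal zone and 15 in follicular B cells. The block gave Dtx1 -2.72 (adjusted p 0.0186) and Cd4 -2.65 (adjusted p 0.0154) in all cDC2, and in cDC2 with Cd209a Cd4 -3.76 (adjusted p 0.00775) and Clec4a4 -2.64 (adjusted p 0.0456), all with edgeR; Dtx1 in marginal zone B cells was at 0.01.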

Other observations

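Mature dendritic cells, gated on markers that include Ccr7 and Fscn1, were too few for a test but carried part of the set. They numbered 4 and 5 cells in the Smc3-cKO libraries and 25 and 18 in the Smc3-WT libraries. Esam was at 53.2 and 26.5 CPM in Smc3-cKO, from 1 UMI in each library, and at 23.6 and 81 CPM in Smc3-WT, from 3 and 7 UMIs. Dtx1 was at 106 and 53 CPM in Smc3-cKO, from 2 UMIs in each library, and at 23.6 and 116 CPM in Smc3-WT. Cd4 was at 0 and 26.5 CPM in Smc3-cKO and 39.3 and 150 CPM in Smc3-WT. Clec4a4 had 0 UMIs in the mature cells of all 4 libraries. Of the 4 surface and target genes of the Esam-high cDC2, Dtx1, Esam and Cd4 were thus found in this class and Clec4a4 was not. Whether they occur in the same mature cells was not counted, and the counts are too small to rank the libraries.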
